A study of Mus musculus with 20 samples.

Results

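In fasted mouse liver, 1638 of 65776 genomic intervals carried acetylation of histone H3 at lysine 27 (H3K27ac) when Cpt2 was present and had no H3K27ac peak in any liver without Cpt2. They were chosen by their H3K27ac calls: each is an interval of the authors' H3K27ac consensus list that was overlapped, by at least 1 base, by peaks of at least 3 of the 4 libraries with intact Cpt2 and by none of the 4 libraries without it. The absence of H3K27ac peaks in Cpt2-null liver is therefore the rule and not a finding. The results below turn on what the rule did not use: the position of the intervals and the marks H3K4me1 and H3K9ac. The difference between Ppara knockout and wild type is also given, from H3K27ac peaks of libraries that the rule used.

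H3K27ac marks active enhancers and promoters, and H3K4me1 marks enhancers whether active or merely primed. H3K9ac is a further acetylation mark of active genes, concentrated near transcription start sites. Cpt2 encodes carnitine palmitoyltransferase 2, the inner mitochondrial membrane enzyme that passes long-chain fatty acids into β-oxidation, the main fuel route and a source of acetyl-CoA in fasted liver. Ppara encodes the fatty acid-activated nuclear receptor PPARα, which switches on genes of fatty acid oxidation and ketone body production during fasting.

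Livers came from male C57BL/6 mice, 9 weeks old, kept on standard chow and fasted for 24 hours before collection. The 4 genotypes were wild type (WT), Cpt2 L-/- (Cpt2 KO, deletion in liver), Ppara -/- (Ppara KO) and Cpt2 L-/- ; Ppara -/- (DKO). WT and Ppara KO are called Cpt2-intact here, and Cpt2 KO and DKO are called Cpt2-null. H3K27ac and H3K4me1 were profiled by ChIP-seq in 2 livers of each genotype, and H3K9ac in 1 WT and 1 Cpt2 KO liver. The promoter that drives the Cre recombinase of the liver deletion is not given in the sources used here. The peak names give the same animal number to the H3K27ac and H3K4me1 libraries of a replicate, so both marks come from the same livers. The Ppara KO and DKO animals are numbered in another range than the WT and Cpt2 KO animals, and whether this marks a separate cohort is not stated. Whole liver was used, so a change in the share of a cell type and a change within cells cannot be told apart. Of 10 hepatocyte marker genes, 7 to 8 had an H3K27ac peak within 1000 bases in each library. The highest H3K27ac folds within 1000 bases of a gene were summed over each marker list. The sum over macrophage and leukocyte markers (4 to 7 of 20 genes with a peak in Cpt2-intact, 7 to 9 in Cpt2-null livers) was 36.8 to 64.0 in Cpt2-intact and 92.9 to 113.9 in Cpt2-null livers. Over endothelial markers (11 to 13 and 13 of 13 genes) it was 135.5 to 171.5 and 220.8 to 252.6. Over stellate and fibroblast markers (5 to 7 and 7 to 9 of 15 genes) it was 50.4 to 65.4 and 88.7 to 121.2. The hepatocyte sum was 117.3 to 147.9 and 150.1 to 177.2, and none of these 4 pairs of ranges overlapped. Over cholangiocyte and progenitor markers (4 and 3 to 4 of 10 genes) the ranges overlapped, at 43.0 to 62.9 and 39.4 to 66.0. These sums are not centred (the median log2 difference of all intervals called in all 8 libraries was 0.25 without centring), and their part in the loss of peak calls was not tested.

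The H3K27ac libraries held 44454 to 48929 peaks each. The smallest peak of a library, a proxy for the fragment length used by the peak caller, was 198 to 210 bases in the Cpt2-intact and 217 to 223 bases in the Cpt2-null H3K27ac libraries. Peaks covered 44.8 to 47.8 Mb in the former and 42.0 to 44.9 Mb in the latter. This property of the libraries goes with the Cpt2 genotype, and the part of either in the loss of peak calls cannot be told apart.

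Most of the 1638 intervals lay away from transcription starts. Only 31 start sites had upstream windows of 250 bases that touched one of these intervals, and 17 windows lay wholly inside. The 5 windows shown belong to the protein-coding genes whose interval had the highest mean H3K27ac fold among those wholly covered, and they are shown because no Cpt2-null liver held an H3K27ac call over these starts. Each is the RefSeq sequence (GRCm38.p6, the assembly of mm10) of the 250 bases before the start, 5′ to 3′ on the gene's strand, with motif matches in capitals.
Serpina1e, chr12:103956898-103957147, minus strand: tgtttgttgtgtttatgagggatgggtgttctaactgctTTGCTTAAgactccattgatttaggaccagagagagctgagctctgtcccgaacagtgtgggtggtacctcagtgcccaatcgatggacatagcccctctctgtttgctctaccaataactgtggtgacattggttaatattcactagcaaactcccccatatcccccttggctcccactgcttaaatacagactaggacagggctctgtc
Gjb1, chrX:101383482-101383731, plus strand: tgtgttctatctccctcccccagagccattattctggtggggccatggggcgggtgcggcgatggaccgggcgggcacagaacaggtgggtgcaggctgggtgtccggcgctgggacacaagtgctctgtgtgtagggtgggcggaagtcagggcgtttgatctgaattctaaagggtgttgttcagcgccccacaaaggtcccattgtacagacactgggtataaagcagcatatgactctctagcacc
Tprkb, chr6:85911665-85911914, plus strand: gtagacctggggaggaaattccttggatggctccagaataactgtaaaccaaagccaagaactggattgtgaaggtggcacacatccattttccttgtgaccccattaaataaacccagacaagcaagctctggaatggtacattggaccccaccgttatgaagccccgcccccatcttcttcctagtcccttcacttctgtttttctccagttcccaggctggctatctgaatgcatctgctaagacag
Snx29, chr16:11405398-11405647, plus strand: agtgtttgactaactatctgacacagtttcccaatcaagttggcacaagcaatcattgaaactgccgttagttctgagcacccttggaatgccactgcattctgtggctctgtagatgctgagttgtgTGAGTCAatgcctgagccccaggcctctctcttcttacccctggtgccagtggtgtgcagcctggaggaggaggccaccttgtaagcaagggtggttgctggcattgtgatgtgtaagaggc
Tmem253, chr14:52016615-52016864, plus strand: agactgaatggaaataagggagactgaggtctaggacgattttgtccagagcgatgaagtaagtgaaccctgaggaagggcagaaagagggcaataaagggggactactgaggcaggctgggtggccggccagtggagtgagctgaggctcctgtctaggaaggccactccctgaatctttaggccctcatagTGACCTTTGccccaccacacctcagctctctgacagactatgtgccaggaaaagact

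Serpina1e encodes an α1-antitrypsin, a protease inhibitor secreted by hepatocytes. Its window held 1 match, to the C/EBP-type letters TTGCNNAA. On either strand these letters occurred in 9.56% of all 32851 upstream windows, in 8.14% of the 7666 windows inside intervals called in all 8 H3K27ac libraries, and in 4 of the 17 windows inside the lost intervals. The Tmem253 window held CAAAGGNCA, part of the element bound by PPARα with RXR and by HNF4, with the nuclear receptor half-site AGGTCA inside it. CAAAGGNCA occurred in 1.71% of all windows and in 1 of the 17. AGGTCA occurred in 14.0% of all windows and in 2 of the 17. The Snx29 window held the AP-1 letters TGANTCA, found in 6.75% of all windows and in 2 of the 17. The windows of Gjb1, which encodes the gap junction protein connexin 32, and Tprkb, which encodes a subunit of the tRNA-modifying KEOPS complex, held none of the 12 motifs searched. With 17 windows these counts are a description of letters only.

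Among the intervals called in all 4 Cpt2-intact libraries, the 8 with the highest mean fold lay at or near genes of diverse function. The MACS2 fold, the height of a peak's summit over its local background, is used throughout as the level of a mark. At the interval over the start of Serpina1e (chr12:103956398-103957388) the H3K27ac fold was 15.8 and 10.4 in the WT livers and 10.2 and 12 in the Ppara KO livers. All 4 values were high for this set of intervals and the genotypes overlapped. Serpina1e belongs to a cluster of near-identical copies, so its reads may be shared with neighbours. At the interval over Cyp2f2 (chr7:27120256-27120875), a cytochrome P450 gene, the folds were 13.5 and 12.7 in WT and 10.7 and 10.7 in Ppara KO.

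The highest mean fold among them was at Brwd3 on the X chromosome (chrX:108833445-108834351), a bromodomain protein gene, with 15.1 and 16.7 in WT and 11.6 and 8 in Ppara KO. The interval in the fatty acyl-CoA thioesterase gene Acot7 (chr4:152229179-152231190) had 11.5 and 12.5 in WT and 7.80 and 17.2 in Ppara KO. Acot7 stood alone among these 8 in lying 50775 bases from the nearest interval called in all 8 libraries. The others lay 81 to 948 bases from one. The remaining 4 of these 8 were nearest to Lama3, Csk, Cys1 and Larp4b, with geometric mean folds of 10.6 to 11.6.

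A single lost interval lay beside Cpt2 itself. It spans chr4:107901663-107903225, beyond the 3′ end of the gene, which lies on the minus strand and starts on the reference at 107903982. Its H3K27ac fold was 7.77 and 9.87 in WT and 4.78 and 5.52 in Ppara KO. Both Ppara KO values were below both WT values, but the log2 difference of -0.75 (SE 0.297) did not pass the test (limma adjusted p = 0.147). Its nearest neighbour called in all 8 libraries was 203 bases further from the gene, where the Cpt2-intact folds were 12.3 and 12.5 (WT) and 15.1 and 19.8 (Ppara KO) and the Cpt2-null folds 10.8 and 12.1 (Cpt2 KO) and 13.3 and 14.1 (DKO). The interval kept an H3K9ac call in both the WT and the Cpt2 KO liver.

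**Figure D1:**
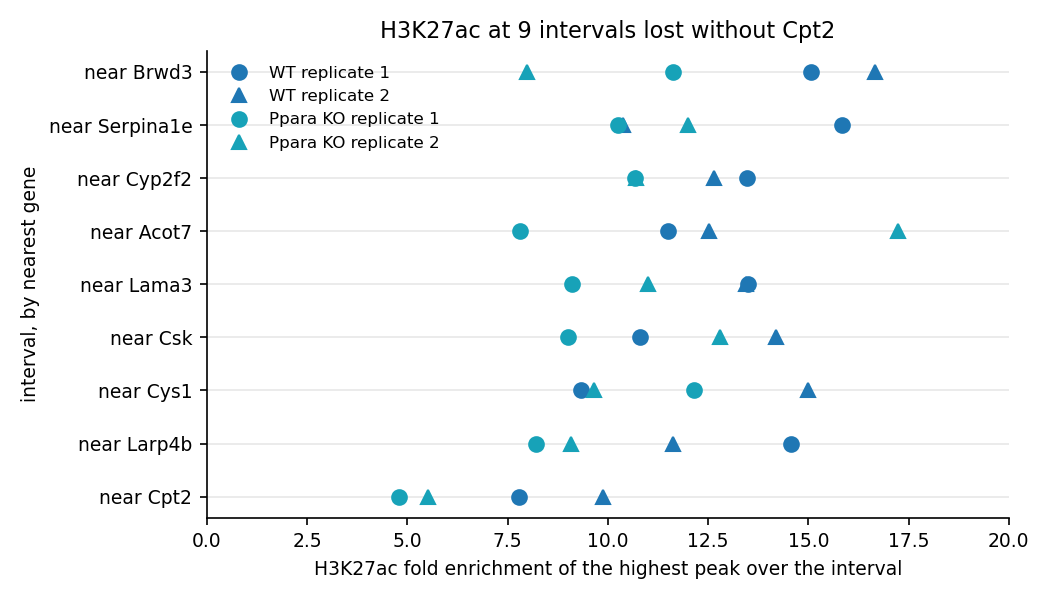
H3K27ac fold enrichment (x axis) of the highest peak over each of 9 intervals (rows, by nearest gene), with 1 point for each WT and Ppara KO library. The 8 intervals with the highest mean fold among those called in all 4 libraries span 7.80 to 17.2, and the interval beside Cpt2 lies below them except for the 9.87 of WT replicate 2.

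As a group the lost intervals had low H3K27ac folds, which a rule of calls in some libraries and none in others favours. Their median H3K27ac fold was 6.11 and 6.35 in the WT libraries and 5.70 and 5.50 in the Ppara KO libraries, where the medians of intervals called in all 8 libraries were 9.90, 11.4, 10.0 and 11.1. Over all intervals called in each of these libraries the medians were 7.2, 7.74, 7.35 and 8. The median width of the lost intervals was 687 bases, compared with 1981 for intervals called in all 8 and 619 for all intervals. It was 883 for intervals lost without Ppara and 511 for those gained without Cpt2. Calls were most complete in WT: 1553 and 1482 intervals had a peak in the WT libraries, and 1306 and 1116 in the Ppara KO libraries. In all, 543 were called in all 4 Cpt2-intact libraries and 1095 in 3 of them. At the edge of the rule, the highest Cpt2-intact fold had a median of 6.80 for members called in 3 libraries and of 6.20 for the 3482 intervals just outside, called in 2 Cpt2-intact and no Cpt2-null library. A further 1028 intervals fell outside because 1 Cpt2-null library held a peak, and their median was 7.72.

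The lost intervals bordered stably acetylated chromatin. Of the 1638, 852 (52.0%) lay within 500 bases of an interval called in all 8 H3K27ac libraries, compared with 21.3% of all intervals, 16.2% of the 1139 intervals lost by the same kind of rule without Ppara, and 6.59% of the 2957 gained without Cpt2. Within 3000 bases the shares were 76.8%, 37.5%, 30.1% and 14.0%. They also clustered with each other: 24.5% had another lost interval within 5000 bases, compared with 8.06% of all intervals that had one. These shares describe positions and were not tested. The intervals called in all 8 and the sets lost or gained were defined by the same H3K27ac calls as the rule. The shares are therefore not independent of it.

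**Figure D2:**
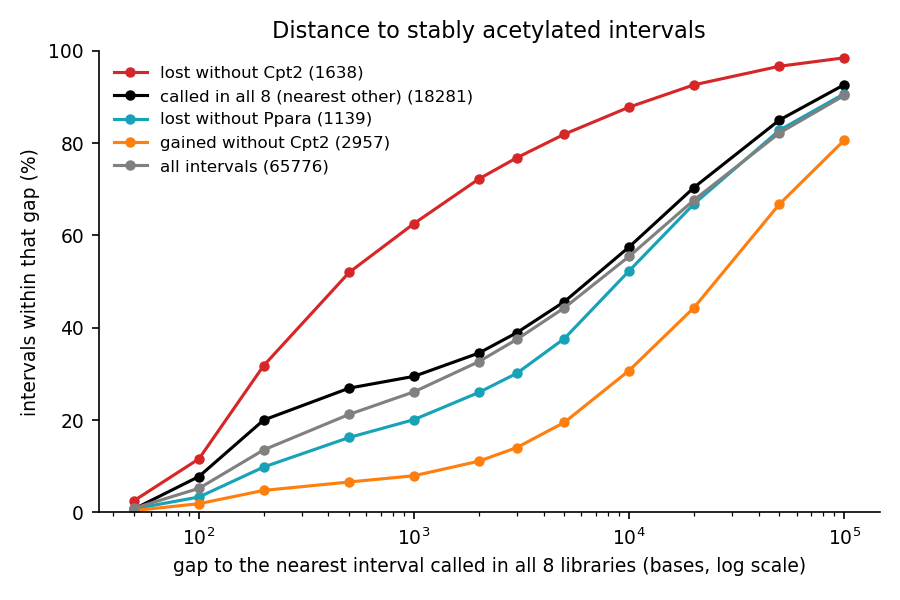
Share of intervals (y axis) within a given gap (x axis, log scale) of the nearest interval called in all 8 H3K27ac libraries, for 5 sets of intervals. The curve of the intervals lost without Cpt2 reaches 52.0% at 500 bases, and that of intervals gained without Cpt2 reaches 6.59%.

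The stable intervals beside them were wide and less fully covered by the peaks of Cpt2-null livers. The 1162 intervals called in all 8 libraries within 3000 bases of a lost interval had a median width of 2752 bases, compared with 1936 for the other 17119. Peaks of the Cpt2-intact libraries covered a median of 85.4% to 89.6% of the width of these neighbours, and peaks of the Cpt2-null libraries 64.8% to 70.7%. The ranges did not overlap. Over the other intervals called in all 8 the medians were 77% to 81.8% and 72.0% to 77.5%, which overlapped. The coverage gap is in part the rule's own, since a neighbour lies next to an interval chosen for lacking Cpt2-null peaks.

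The height of the neighbours gave a smaller difference that depends on scaling. After centring each library on its median, 155 of the 1162 neighbours had a lower and 25 a higher H3K27ac fold in Cpt2-null liver (limma, adjusted p under 0.05), where 7.38% of all 18281 intervals called in all 8 were lower and 4.9% higher. Their median log2 difference was -0.22. Without centring, 54 neighbours (4.65%) were lower and 105 (9.04%) higher, compared with 2.36% and 19.2% of all intervals, whose median moved to 0.25. The median of the neighbours then changed sign, to 0.05. Leaving out 1 library gave 71 (without Cpt2 KO replicate 1) to 141 lower neighbours. The lower count was 77 and 79 without 1 Ppara KO library, 91 and 101 without 1 DKO library and 93 without Cpt2 KO replicate 2. With the smallest peak width as a covariate, 0 of the 18281 intervals passed, and 1426 had an unadjusted p under 0.05. That width parts the Cpt2-intact from the Cpt2-null H3K27ac libraries completely, so this fit cannot tell width from genotype. The contrast is the one that chose the lost intervals and is given as a description. These fits were added after seeing the data.

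Few lost intervals were at transcription starts. Of those with a start site in the RefSeq table, 4.35% lay within 1000 bases of one, compared with 16.9% of all intervals and 36.0% of those called in all 8. A further 26.6% lay more than 1000 and up to 5000 bases away, compared with 16.8% and 15.0%. The middle of 1182 intervals (72.2%) lay in the body of a protein-coding gene, near the 66.1% of all intervals and 70.5% of those called in all 8.

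H3K4me1 was present at most of the lost intervals, and its calls were more frequent in Cpt2-intact liver. An H3K4me1 peak overlapped 86.3% and 86.2% of the 1638 in the WT livers and 86.2% and 53.8% in the Ppara KO livers. The Cpt2 KO livers had 38.9% and 80.0%, and the DKO livers 44.1% and 45.1%. Ppara KO replicate 2 lay far below the other Cpt2-intact livers and Cpt2 KO replicate 2 far above the other Cpt2-null livers, so the ranges overlapped. Over all 65776 intervals the share was 47.3% to 52.6% in every library. Over the 1139 intervals lost without Ppara it was 77.3% to 83.8% in the WT and Cpt2 KO livers. In the Ppara KO and DKO livers it was 49.9% to 53.5% of that set.

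These shares moved with the smallest peak width of the H3K4me1 library. The 4 libraries with a smallest peak of at most 200 bases were both WT, Ppara KO replicate 1 and Cpt2 KO replicate 2, and they had 80.0% to 86.3%. The 4 libraries with at least 210 bases had 38.9% to 53.8%. Within each of these width classes the Cpt2-null libraries were lower: 80.0% against 86.2% to 86.3% in the first, and 38.9% to 45.1% against 53.8% in the second. Each class holds only 1 library of 1 of the Cpt2 states, so no test was possible within a class. The part of peak width in the shares was not tested. Over intervals called in all 8 H3K27ac libraries the order was the opposite, with 66.5% to 70.7% in the first class and 73.0% to 79.5% in the second. Over all intervals, the mean of the Cpt2-null libraries was 0.723 and 0.699 percentage points above that of the Cpt2-intact ones in these classes.

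**Figure D3:**
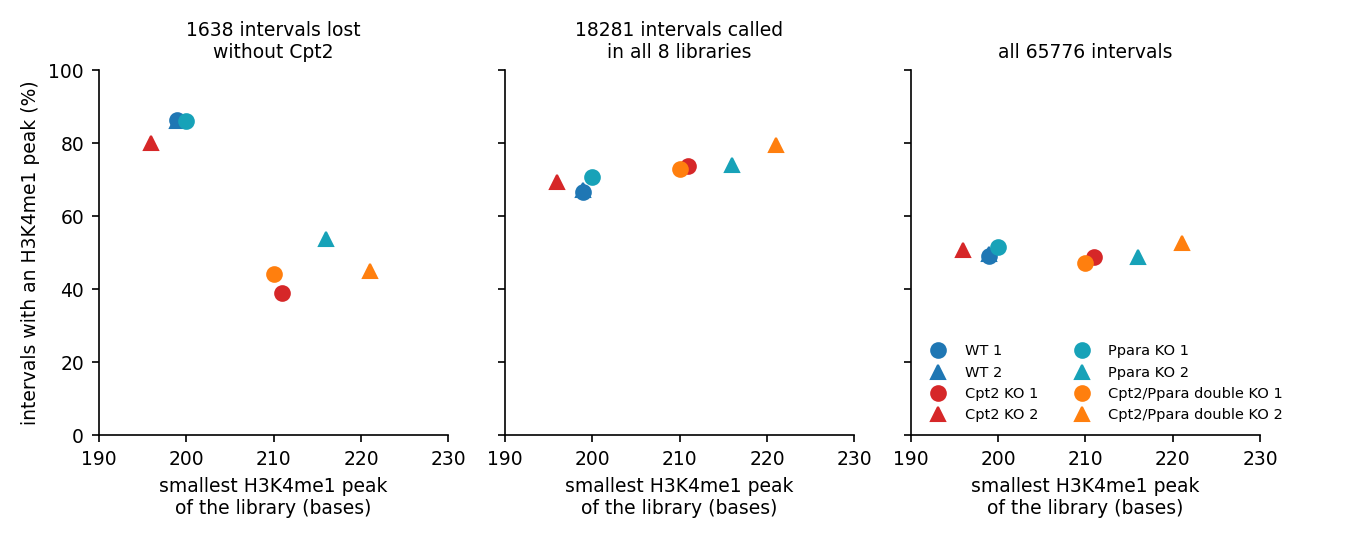
Share of intervals with an H3K4me1 peak (y axis) against the smallest H3K4me1 peak of the library in bases (x axis), with 1 point for each of the 8 libraries, for the lost intervals, intervals called in all 8 H3K27ac libraries and all intervals. In the first panel the libraries part into 80.0% to 86.3% and 38.9% to 53.8%, and in the second the order of the width classes is the opposite, at 66.5% to 70.7% and 73.0% to 79.5%.

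By pattern, 454 lost intervals (27.7%) had H3K4me1 in all 8 livers, compared with 26.0% of all intervals. Another 325 (19.8%) had it in exactly the 4 libraries with the small smallest width, compared with 4.11% of all intervals. Only 92 (5.62%) had none, compared with 24.9%. In 1395 (85.2%) at least 1 Cpt2-null liver kept an H3K4me1 peak, compared with 70.0% of all intervals and 86.7% of those called in all 8. Cpt2 KO replicate 2 alone held a peak at 80.0% of the lost intervals. The pattern of the rule itself, at least 3 Cpt2-intact and no Cpt2-null library, was met in H3K4me1 by 55 (3.36%), compared with 576 of all intervals (0.876%). Of the 1139 intervals lost without Ppara, 5.88% had no H3K4me1, 30.6% had it in all 8 livers and 92.5% in at least 1 Cpt2-null liver. Exactly the 4 small-width libraries held it at 2.46% of that set, and the pattern of the Cpt2 rule was met by 0.

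Among those 55, the interval in Ghr (chr15:3453003-3454585), the growth hormone receptor gene, had H3K4me1 folds of 8.37 and 7.62 in WT and 4.24 and 3.22 in Ppara KO, with no peak in the Cpt2-null livers. Both Ppara KO values were below both WT values. Its H3K27ac folds were 11.2 and 10.1 in WT and 8 and 8.02 in Ppara KO, a difference that did not pass the test (limma adjusted p = 0.475). The interval in Acat3 (chr17:12929907-12930280), a paralogue of the cytosolic acetoacetyl-CoA thiolase gene, had H3K4me1 folds of 7.91 and 7.91 in WT and 9.24 and 7.75 in Ppara KO. The interval beside Cyp4f14 (chr17:32918072-32918813), a P450 gene of fatty acid ω-hydroxylation, had 7.40 and 6.39 in WT and 6.17 in Ppara KO replicate 1 alone. Other intervals with this pattern lay nearest to Lama3, Hdhd5 and Proz, the protein Z gene.

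Serpina1e shows the other course, with H3K4me1 kept. Its interval had H3K4me1 folds of 10.5 and 11.4 in WT, with 12.8 and 11.5 when Ppara alone was lost. The Cpt2 KO livers had 5.20 and 9.08 and the DKO livers 7.11 and 6.00. Every Cpt2-null value was below every Cpt2-intact value, but the log2 difference of -0.76 (SE 0.217) did not pass the test (limma adjusted p = 0.385).

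**Figure D4:**
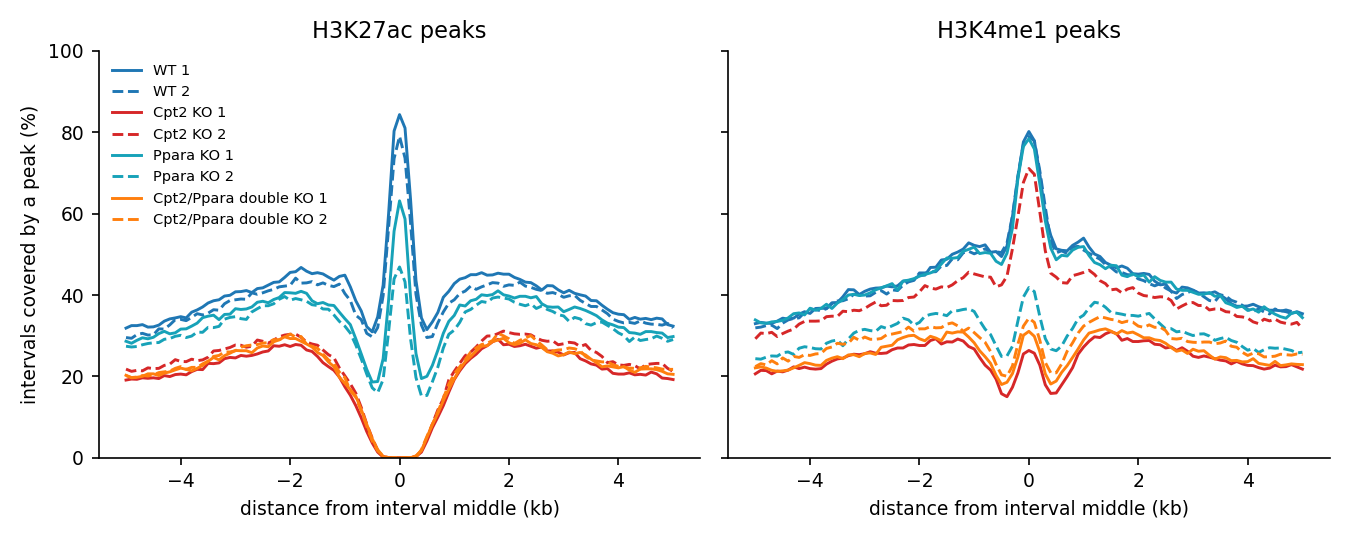
Share of the 1638 lost intervals covered by a peak (y axis) at each distance from the interval middle in kb (x axis), for H3K27ac (left) and H3K4me1 (right), with 1 line per library. H3K27ac coverage at the middle is 0% in the Cpt2-null libraries by the rule and 46.9% to 84.3% in the others, while H3K4me1 coverage there runs from 26.4% in Cpt2 KO replicate 1 to 80.2% in WT replicate 1.

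Where H3K4me1 was called in all 8 livers, its fold could be compared. Of the 454 lost intervals so called, 0 passed an adjusted p of 0.05 between Cpt2-null and Cpt2-intact liver (limma over 17094 intervals, of which 0% passed), and 93 had an unadjusted p under 0.05, compared with 1733 of the 17094. The median log2 difference was -0.25 at these 454 and 0.00 over all. Without Cpt2 KO replicate 2, 47 of 17778 intervals passed, 6 of them lost intervals with lower H3K4me1 in Cpt2-null liver. Leaving it out puts every remaining Cpt2-null library, and Ppara KO replicate 2, in the class with a smallest peak of at least 210 bases. The part of peak width in these calls was not tested. With the smallest peak width as a covariate the median at the 454 was -0.16. Requiring a call in every library leaves out the intervals that lost H3K4me1 altogether.

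Loss of Ppara did not pass the test for H3K4me1 either. Between Ppara-null and Ppara-intact liver 0 of the 454 lost intervals and 0% of the 17094 passed (limma), with 56 and 2372 at an unadjusted p under 0.05. The median log2 difference was -0.11 at the lost intervals, and with the smallest peak width as a covariate it turned to 0.05. Without Cpt2 KO replicate 1, 581 of 17934 intervals passed, with 23 of 540 lost intervals lower (4.26%, compared with 1.81% of all) and 1 higher. The smallest peaks were then 196 to 199 bases in the Ppara-intact and 200 to 221 bases in the Ppara-null libraries. Width and genotype cannot be told apart in that fit.

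The H3K27ac fold in Ppara KO compared with WT was tested at the 543 lost intervals called in all 4 Cpt2-intact libraries. In this fit 9 were lower and 0 higher in Ppara KO (limma, adjusted p under 0.05), where 2.78% of all 21083 tested intervals were lower and 1.7% higher. Quantile normalization changed the split over all intervals from 359 higher and 586 lower to 386 higher and 346 lower, and left 5 lost intervals lower. The 9 make up 1.66% of the 543, a share below the background. The rule used the calls of these same libraries. A lost interval far lower in Ppara KO could miss a call there and leave the 543. The share is therefore not independent of the rule. The median log2 difference was -0.20 at the 543 and -0.04 over all. Without WT replicate 1, 14 of 628 lost intervals were lower (2.23%, compared with 7.89% of all). Without Ppara KO replicate 2, 2 of 1065 were lower (0.188%, compared with 0.741%), and without Ppara KO replicate 1, 3 of 875 (0.343%, compared with 0.663%). Without WT replicate 2, 6 of 699 were lower (0.858%, compared with 1.11%).

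The lowest adjusted p among them belonged to an interval in Dusp16 (chr6:134726359-134728948), a phosphatase gene acting on MAP kinases. Its H3K27ac fold was 15.1 and 15.7 in WT and 6.33 and 6.00 in Ppara KO, so the genotypes did not overlap. The log2 difference was -1.30 (SE 0.291, limma adjusted p = 0.0179). The interval in Col18a1 (chr10:77106834-77108357), the collagen XVIII gene, had 10.1 and 10.2 in WT and 4.80 and 3.55 in Ppara KO. Its fold fell by 1.28 on the log2 scale (SE 0.310, limma adjusted p = 0.0246). Near Stk19 the log2 difference was -1.25, in Peli2 -1.24 and in Wwox -1.20, and the other 4, in Aatk, Sdc1, Rab4a and Arhgef10, lay from -1.11 to -1.13. Each of the 9 lost the call under 2 to 6 of the 9 alternatives tried, counting those in which it was no longer tested.

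H3K9ac, in 1 WT and 1 Cpt2 KO liver, was present at 674 lost intervals (41.1%) in WT and at 557 (34.0%) in Cpt2 KO. Over all intervals the shares were 34.5% and 34.6%, and over intervals called in all 8 they were 72.8% and 71.7%. H3K9ac was in WT alone at 206 lost intervals (12.6%, compared with 5.07% of all intervals) and in Cpt2 KO alone at 89 (5.43%, compared with 5.14%). It was in both at 468 (28.6%, compared with 29.4%) and in neither at 875 (53.4%, compared with 60.4%). With 1 liver a genotype there is no replicate check. The intervals in WT alone with the highest mean H3K27ac fold were those of Serpina1e, Cyp2f2, Cys1, Serpina3n, Hdhd5 and Gm5820. Serpina3n encodes an acute-phase protease inhibitor of the α1-antichymotrypsin type, and its interval (chr12:104404905-104405276) had H3K27ac folds of 13.5 and 7.5 in WT and 10.0 and 10.0 in Ppara KO.

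Among the gene lists, lost intervals took larger shares near plasma protein, bile acid and transcription factor genes than near all genes. Several other lists, given below, also lay above the share near all genes, and others lay below it. An interval was assigned to the nearest protein-coding gene body within 50000 bases, which gave a gene to 60557 intervals, of which 2.6% were lost intervals. Of 520 intervals near 89 genes of plasma proteins, acute phase and complement, 32 (6.15%) were lost. Near genes of cholesterol and bile acids 18 of 302 (5.96%) were lost, and near hepatocyte transcription factor genes 29 of 537 (5.40%). Those of plasma proteins were nearest to 20 genes, and those of each of the other lists to 12 genes. The lists were chosen with earlier results of these data known, and no test was made of them.

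Near genes of fuel oxidation the counts were small, with 2.6% of all intervals near genes lost, and nothing is read from them. Near 21 genes of mitochondrial fatty acid oxidation 1 of 97 intervals (1.03%) was lost, the one beside Cpt2. Near genes of peroxisomal and microsomal oxidation 1 of 125 was lost, in Acox2, the peroxisomal oxidase of bile acid intermediates and branched fatty acids.

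**Figure D5:**
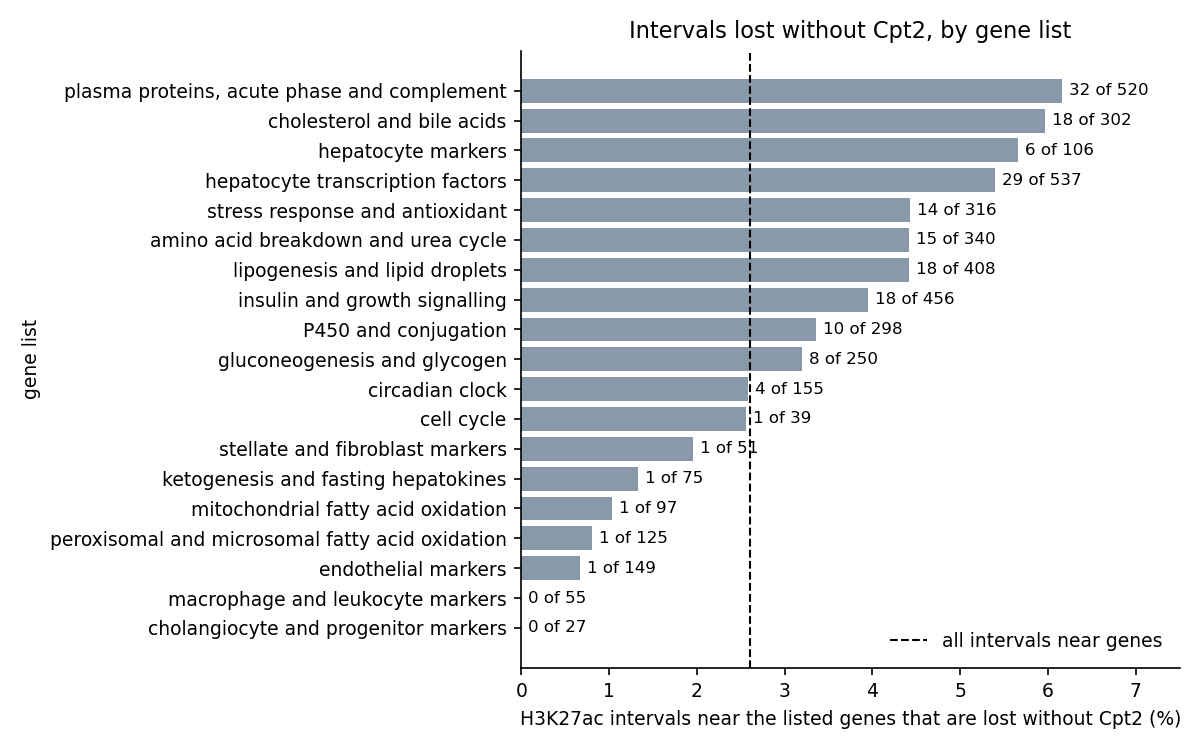
Share of H3K27ac intervals near the genes of each of 19 lists that were lost without Cpt2 (bars, with counts), beside the 2.6% of all intervals near genes (dashed line). Plasma protein genes have 32 of 520 and genes of mitochondrial fatty acid oxidation 1 of 97.

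Among plasma protein genes, the interval in Apoc2 (chr7:19671174-19672013), the apolipoprotein that activates lipoprotein lipase, had H3K27ac folds of 9.43 and 9.40 in WT and 7.79 and 6.19 in Ppara KO. Proz, the protein Z gene of coagulation, had 7.88 and 9.00 in WT and 8.43 in Ppara KO replicate 2, and its H3K9ac call was in WT alone. The Apoc2 interval had H3K9ac in both the WT and the Cpt2 KO liver. Among genes of cholesterol and bile acids, the interval in Slco1b2, the hepatic organic anion uptake transporter gene, had 11 and 7.53 in WT and 6.19 and 6.30 in Ppara KO. Baat, the enzyme that joins bile acids to amino acids, had 5.71 and 6.85 in WT and 10.8 and 5.43 in Ppara KO. The intervals of Nr1h4, the bile acid receptor FXR, and Cyp7b1, an oxysterol hydroxylase, were each called in 3 libraries with geometric mean folds of 6.62 and 7.17.

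Among hepatocyte transcription factors, intervals lay near Cebpa, Onecut2, Stat5b, Foxa2 and Stat3. The interval nearest Cebpa (chr7:35151068-35152614), which encodes the leucine zipper factor C/EBPα, was 29913 bases from the gene and had 7.77 and 10.1 in WT and 7.40 in Ppara KO replicate 1. The interval beside Foxa2 (chr2:148041537-148042405), a pioneer factor gene, had 8.20 and 7.75 in WT and 5.63 in Ppara KO replicate 2. H3K9ac was called at the intervals of Cebpa, Onecut2, Foxa2 and Stat3 in WT and not in Cpt2 KO, and at that of Stat5b in both livers. An interval in Hnf4a, the nuclear receptor central to hepatocyte identity, had 8.93 and 6.83 in WT and 6.38 and 5.28 in Ppara KO. H3K9ac was called there in both the WT and the Cpt2 KO liver.

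Lipid and glucose genes were also represented. Of 408 intervals near lipogenesis and lipid droplet genes 18 (4.41%) were lost. The interval over the start of Mlxipl (chr5:135089867-135091266), which encodes the glucose-sensing factor ChREBP, had 7.58 and 11 in WT and 5.86 in Ppara KO replicate 2. It kept H3K4me1 in all 8 livers, at 5.62 to 8.13 in Cpt2-intact and 7 to 11.9 in Cpt2-null liver. Its H3K9ac call was in both the WT and the Cpt2 KO liver. Lpin1, a phosphatidate phosphatase, had 9.00 and 8.25 in WT and 5.83 in Ppara KO replicate 2, with H3K9ac in WT alone. Near gluconeogenesis and glycogen genes 8 of 250 (3.20%) were lost, among them an interval 9005 bases from G6pc, the glucose-6-phosphatase gene, with 8.58 and 8.63 in WT and 4.90 and 4.51 in Ppara KO. Pcx, the pyruvate carboxylase gene, had 13.1 and 10.4 in WT and 4.33 in Ppara KO replicate 1.

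Near genes of amino acid breakdown and the urea cycle 15 of 340 (4.41%) were lost. The interval beside Gnmt, a methyltransferase of methionine breakdown, had 9.49 and 8.09 in WT and 7.14 and 7.84 in Ppara KO. The interval in Hgd, of tyrosine breakdown, had 8.54 and 8.18 in WT and 6.44 in Ppara KO replicate 1. Both had H3K9ac in WT alone. Of the stress and antioxidant genes, with 14 of 316 (4.43%), Cat, the catalase gene, had 10.8 and 6.60 in WT and 7.48 in Ppara KO replicate 1. Insulin and growth signalling genes had 18 of 456 (3.95%), among them Rictor, Grb14, Met, Insr and Egfr. P450 and conjugation genes had 10 of 298 (3.36%) and circadian clock genes 4 of 155 (2.58%), the latter near the background.

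Near markers of other liver cells the counts were small, with 2.6% of all intervals near genes lost, and nothing is read from them. There were 0 of 55 near macrophage and leukocyte markers, 0 of 27 near cholangiocyte and progenitor markers, 1 of 149 near endothelial markers, in Pecam1, and 1 of 51 near stellate and fibroblast markers, in Pdgfrb. Near hepatocyte markers there were 6 of 106 (5.66%), nearest to Cps1, Hnf4a, Fgb, Alb and Ttr, and within 5000 bases of a gene 2 of 66 (3.03%). Summed H3K27ac folds at the stellate, endothelial, macrophage and hepatocyte markers were higher in every Cpt2-null than in every Cpt2-intact liver, as given above. The cell cycle list had 1 of 39, beside Mcm2.

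Some genes held several. The genes with the most lost intervals were Daam1 with 8 and Vgll4, Ergic1, Fgd6 and Gfra1 with 7 each. Daam1 encodes a formin of Wnt signalling, Vgll4 a cofactor of TEAD factors and Gfra1 a receptor for GDNF. All 7 of Vgll4 lay in the gene body, 65 to 1007 bases from an interval called in all 8 libraries. The strongest (chr6:114943935-114944856) had H3K27ac folds of 15.7 and 11.2 in WT and 10.2 in Ppara KO replicate 2. Of the 8 of Daam1, 7 lay in the gene body, and 5 were 4228 to 8952 bases from an interval called in all 8. No lost interval was assigned to Ppara within 50000 bases, and the 2 nearest lay 53747 and 54758 bases away.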

How the data were processed

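ChIP-seq peaks of 16 liver libraries and the H3K9ac intervals of 2 were analysed. The submitters' processing notes name BWA, MACS2 2.1.0 and mm10. Peaks were called per library, per the file headers, with replicates not pooled; 1 library, H3K27ac of Ppara KO replicate 2, has a different build name in its peak names and was used as mm10. The fold of a peak (a ratio to local background) and its −log10 p and −log10 q values are the authors' deposited values. Read totals are not given in the files, so depth is unknown. Intervals are the first block of the authors' deposited H3K27ac consensus file; their positions were made 1-based.

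An interval took the highest fold among peaks overlapping it by 1 base or more (bedtools 2.31.1). Folds were put on a log2 scale, centred on each library's median and tested with limma 3.58.1 (lmFit, eBayes with trend; Benjamini-Hochberg over all intervals called in every library of the fit); the step was tested on simulated data. Genes and start sites are RefSeq GRCm38.p6; chromosome 18 has no start sites in that table. Named intervals were chosen by fixed rules: the 8 highest folds, up to 5 genes a list, the 5 genes with most intervals, those nearest Cpt2 and Ppara, and those passing a test or sharing a pattern of H3K4me1 or H3K9ac. The members, the lists and the tests were chosen with earlier results of these data known. The peak names give each replicate its own animal number, and p-values measure the spread between 2 livers a genotype. Alternatives tried were other call and overlap thresholds, scalings, a replicate block, filled calls and leaving out each library.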

Additional observations from a re-analysis of the deposited data

Results flagged for a closer look

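In Cpt2-intact liver the share of lost intervals with an H3K4me1 peak was 53.8% in Ppara KO replicate 2, apart from the other 3 livers at 86.2% to 86.3%. In Cpt2-null liver it was 80.0% in Cpt2 KO replicate 2, apart from the other 3 at 38.9% to 45.1%. Each gap to the nearest liver took a larger part of the range of its 4 livers than Dixon's 95% critical value, which chance passes in about 1 of 20 groups, and 17 such groups of values were examined. Both livers differ from the rest of their Cpt2 state in the smallest H3K4me1 peak, which was 216 bases in Ppara KO replicate 2 and 196 bases in Cpt2 KO replicate 2. The part of peak width in these values was not tested.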

How the results depend on the processing

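The number of lost intervals was 1150 with peaks of −log10 q of at least 10 and 543 when all 4 Cpt2-intact libraries had to hold a peak; leaving out each library gave 628 to 2022, fewer by construction without a Cpt2-intact library and more without a Cpt2-null one. Under each of these the share within 500 bases of an interval called in all 8 libraries was 49.4% to 62.8%. For H3K27ac in Ppara KO against WT, 945 intervals passed, with 224 to 2748 when 1 library was left out and 6401 when uncalled libraries were filled with their lowest value. For H3K4me1, 0 intervals passed between Cpt2 states, and leaving out each library gave 0 to 47. Between Ppara states 0 passed, compared with 19 without centring, 16 with −log10 q of at least 10, 419 with filled libraries and 0 to 581 when 1 library was left out. The causes were not tested. The main fits did not pair livers by replicate number. Between same-numbered replicates the correlation of deviations was 0.00 for WT and Ppara KO in the H3K27ac fit of Cpt2-intact livers. It was -0.06 to 0.17 between genotypes over all 8 H3K27ac libraries. In H3K4me1 it was -0.49 (Cpt2 KO and Ppara KO) to 0.11. With the replicate block 1219 intervals passed in the H3K27ac fit, 13 of them lost intervals and lower, and 0 in both H3K4me1 fits. The share of lost intervals with an H3K4me1 peak, with −log10 q of at least 10, was 80.9%, 80.3%, 79.2% and 48.4% in the WT and Ppara KO livers and 33.2%, 73.7%, 37.8% and 39.2% in the Cpt2 KO and DKO livers.

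No depth in reads was available, and 2 livers a genotype limit every comparison. A missing peak means a signal under the caller's threshold, not the absence of the mark.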

Other observations

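The other marks of the lost intervals varied with distance from stable chromatin. The median of the geometric mean H3K27ac fold was 6.00 for the 852 lost intervals within 500 bases of an interval called in all 8 libraries, 5.75 for the 406 more than 500 and up to 3000 bases away and 5.94 for the 380 further away. H3K9ac in WT was present at 46.0%, 44.1% and 27.1% of these, and in Cpt2 KO at 39.8%, 37.7% and 17.1%. H3K4me1 in Cpt2 KO replicate 1 was present at 30.3%, 34.7% and 62.6%, in Cpt2 KO replicate 2 at 79.7%, 83.7% and 76.6%, and in WT replicate 1 at 84.4%, 89.2% and 87.4%. The intervals far from stable chromatin had the least H3K9ac. H3K4me1 was present at 35.1%, 41.4% and 67.1% in DKO replicate 1, and at 36.3%, 42.4% and 67.6% in DKO replicate 2. Its share rose with distance in each H3K4me1 library with a smallest peak of at least 210 bases, including Ppara KO replicate 2. In each library with at most 200 bases it was highest more than 500 and up to 3000 bases away. The 2 Cpt2 KO livers fall in different width classes and did not share an order for H3K4me1. The part of peak width in this was not tested. No test was made of these values.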
